A study of Mus musculus with 32 samples.

Results

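The genes described here are 7 genes of the sodium pump and its small regulators, namely the beta subunit genes Atp1b1, Atp1b2 and Atp1b3 and the FXYD genes Fxyd1, Fxyd2, Fxyd5 and Fxyd6. They were chosen by name, with earlier results of these data known, and were found by Ensembl identifier among the 55806 identifiers of the 4 count tables. All 7 had counts in each of the 32 libraries. The study placed a tumor mutation of the YEATS domain of ENL (gene Mllt1) in the embryonic mouse kidney and measured polyadenylated RNA in whole kidneys and in sorted cells. A whole kidney of the Six2 lineage at E18.5 carried Six2-TGC tg/+ with wild-type Enl (ENL-WT, 2 libraries), or in addition 1 EnlT1 allele (ENL-T1, 2 libraries) or 1 EnlT3 allele (ENL-T3, 2 libraries). Sorted tdT+ cells of the Six2 lineage carried Six2-TGC tg/+ and the LSL-tdT reporter, with or without EnlT1, and were taken at 2 stages, E14.5 and E18.5 (3 libraries per genotype and stage). In the Foxd1 lineage all embryos carried Foxd1-GC/+, with or without EnlT1, as sorted tdT+ cells with the LSL-tdT reporter (4 libraries per genotype) and as whole kidneys (3 libraries per genotype), both at E18.5.

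Six2-TGC is a transgene that expresses Cre in nephron progenitors, and it is reported to misexpress Six3 as well. The descendants of these cells, the podocytes and the tubule from proximal to distal, carry the mutant allele. Embryos of both sexes were used. Foxd1-GC is inserted into the Foxd1 gene and removes 1 of its copies in controls and mutants alike, and it acts in the stroma. The controls therefore share the Cre allele with the mutants, and all mutants kept 1 wild-type Enl allele. Mllt1 itself was counted in every group, with group means from 32.8 to 228 CPM (counts scaled to the total of the library after TMM normalization), and these counts do not separate the mutant from the wild-type allele.

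The sodium pump is an ATPase that carries sodium out of the cell and potassium into it, and it sits in the basolateral membrane of tubule cells, where it drives most transport of the kidney. Its catalytic alpha subunit needs a beta subunit, a glycoprotein, to fold and to reach the membrane. FXYD proteins are short membrane proteins that bind the alpha-beta pair and tune its affinity for sodium and potassium in a tissue-specific way, and the FXYD2 protein (the gamma subunit) is known for its place in renal tubules.

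On GRCm38 (mm10), Atp1b1 lies at chr1:164437109-164458355 on the minus strand, Atp1b2 at chr11:69599736-69605942 on the minus strand and Atp1b3 at chr9:96332655-96364442 on the minus strand. Fxyd6 (chr9:45370185-45396159) and Fxyd2 (chr9:45399669-45410278) are neighbours on the plus strand of chromosome 9, with 3509 bases between them. Fxyd5 (chr7:31032722-31042481) and Fxyd1 (chr7:31051678-31057199) lie on the minus strand of chromosome 7, with Fxyd7 between them at distances of 31 and 210 bases. Reads were counted without regard to strand, and 18.7% of the exon length of Atp1b1 is shared with Nme7 on the other strand, so that reads there cannot be assigned with certainty. For Fxyd5 the shared part is 1.43%, and the other 5 genes share none.

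RefSeq promoter sequences (GRCm38.p6, 250 bases before to 50 after the start) were at hand for 5 of the 7 genes. Those of Atp1b1 (chr1:164458306-164458605, minus strand) and Fxyd6 (chr9:45369935-45370234, plus strand) are shown because these genes were lower together in the ENL-T1 cells of the Six2 lineage, and that of Fxyd1 (chr7:31054804-31055103, minus strand) because it was higher in them at E14.5. Both strands were searched for TATAAA, and capitals mark a match.
Atp1b1: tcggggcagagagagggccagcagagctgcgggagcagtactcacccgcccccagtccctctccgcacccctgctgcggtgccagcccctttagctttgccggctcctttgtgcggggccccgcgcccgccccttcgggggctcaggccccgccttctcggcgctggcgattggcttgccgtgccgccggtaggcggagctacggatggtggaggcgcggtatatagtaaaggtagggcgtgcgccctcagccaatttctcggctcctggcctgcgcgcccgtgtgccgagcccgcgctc
Fxyd6: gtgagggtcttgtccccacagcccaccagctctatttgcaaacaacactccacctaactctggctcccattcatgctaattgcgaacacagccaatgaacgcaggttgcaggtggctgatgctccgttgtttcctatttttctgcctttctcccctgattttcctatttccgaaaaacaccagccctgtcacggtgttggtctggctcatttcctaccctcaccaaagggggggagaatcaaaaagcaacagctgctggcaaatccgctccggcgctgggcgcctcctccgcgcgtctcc
Fxyd1: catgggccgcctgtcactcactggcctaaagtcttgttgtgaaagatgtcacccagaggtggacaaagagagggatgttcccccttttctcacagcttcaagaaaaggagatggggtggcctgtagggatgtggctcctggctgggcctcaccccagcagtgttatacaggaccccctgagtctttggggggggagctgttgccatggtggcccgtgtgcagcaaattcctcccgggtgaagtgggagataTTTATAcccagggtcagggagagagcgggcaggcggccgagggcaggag
The windows of Atp1b1 and Fxyd6 did not hold it, and that of Fxyd1 held it on its opposite strand, in capitals. Among 32851 promoters of this length, 13.6% held TATAAA. The Atp1b1 window is GC-rich (71.0% G or C, with 31 CG pairs), against 54.3% and 12 CG pairs in Fxyd6, 58.7% and 6 in Fxyd1, and medians of 52.7% and 7 over all promoters.

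Libraries of the Six2 lineage and of whole Foxd1 kidneys held 67137000 to 157270000 counts, and sorted Foxd1 cells had from 2557400 to 3508400 (totals rounded to 5 significant digits). The lowest count of any of the 7 genes in any library was 42, for Atp1b1 in the fourth ENL-WT library of sorted Foxd1 cells, where 3 counts correspond to 1.08 CPM, a limit that covers counting error only. Sorted Foxd1 cells held 6059 to 8688 CPM of 8 stroma markers, and sorted Six2 cells of ENL-WT 1761 to 2049 CPM of 6 progenitor markers at E14.5 and, at E18.5, 1073 to 1380.5. Markers of the other lineage were present too. Sorted Foxd1 ENL-WT cells held 423 to 744 CPM of 5 podocyte markers. Foxd1 itself was at 56.9 to 76.7 CPM in them and at 134.6 to 159.5 CPM in sorted Six2 ENL-WT cells at E14.5. Some libraries stand apart in markers. ENL-WT replicates 1 and 2 of sorted Foxd1 cells held 190.0 and 118 CPM of 5 proximal tubule markers against 65.7 and 69.8 in replicates 3 and 4, and ENL-WT replicate 3 of sorted Six2 cells at E14.5 held 14.4 CPM of them against 3.10 and 6.19 in the other ENL-WT libraries. Skeletal muscle markers summed to 56.9 CPM in replicate 2 of the whole Six2 ENL-WT kidneys and to 112 CPM in replicate 1 of the whole Foxd1 ENL-T1 kidneys.

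Across the 11 groups Atp1b3 was nearly even and the other 6 genes were not. The mean CPM of Atp1b3 ran from 93.1 ± 3.9 (SD, n = 4) in sorted Foxd1 ENL-WT cells to 171 ± 11 (SD, n = 3) in sorted Six2 ENL-WT cells at E18.5, a ratio of 1.83. Fxyd2 spanned a ratio of 305, Atp1b1 80.7, Fxyd1 64.7, Atp1b2 32.9, Fxyd5 21.5 and Fxyd6 7.86. The groups were sequenced with different kits and read lengths, so levels set across experiments are given as a description.

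Atp1b1, the beta subunit of most tubule epithelium, was highest in whole kidneys, with 1002 ± 49.6 CPM (SD, n = 2) in Six2 ENL-WT and 950.0 ± 59.5 (SD, n = 3) in Foxd1 ENL-WT, whose libraries overlapped. Next in order came the mutant whole kidneys, whose ranges overlapped each other, then sorted Six2 cells at E18.5, with 394 ± 52 CPM in ENL-WT and 220 ± 42 in ENL-T1 (SD, n = 3). Sorted Foxd1 cells and sorted Six2 cells at E14.5 followed, with means from 28.5 down to 12.4 CPM.

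Fxyd2 had the same top, with 579 ± 11 CPM (SD, n = 3) in Foxd1 ENL-WT and 426 ± 48 (SD, n = 2) in Six2 ENL-WT whole kidneys, and was lowest in the sorted Six2 cells of E14.5, with 2.90 ± 2.7 and 1.90 ± 0.35 CPM (SD, n = 3). Fxyd6, the FXYD protein also called phosphohippolin, ran differently. Its highest and lowest means were 428 ± 29 CPM (SD, n = 3) in sorted Six2 ENL-WT cells at E14.5 and 54.5 ± 3.3 (SD, n = 2) in whole Six2 ENL-T3 kidneys.

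Fxyd1 (phospholemman, best known from heart and muscle), Fxyd5 (dysadherin, which also lowers cell adhesion) and Atp1b2 (a beta subunit also known as an adhesion molecule of glia) were highest in sorted Foxd1 cells. There the means of Fxyd1 were 109 ± 6.5 CPM in ENL-T1 and 86.2 ± 7.9 in ENL-WT (SD, n = 4), with no overlap, against 1.69 to 8.42 in the other groups. Neighbouring groups in the order of levels overlapped in 5 of 10 steps for Atp1b1 and Fxyd2, in 6 of 10 for Atp1b2, Atp1b3 and Fxyd5, and in 3 of 10 for Fxyd1 and Fxyd6. With TMM over all 32 libraries it was 5 of 10 for Fxyd1 and 7 of 10 for Atp1b3, with the other genes unchanged.

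**Figure D1:**
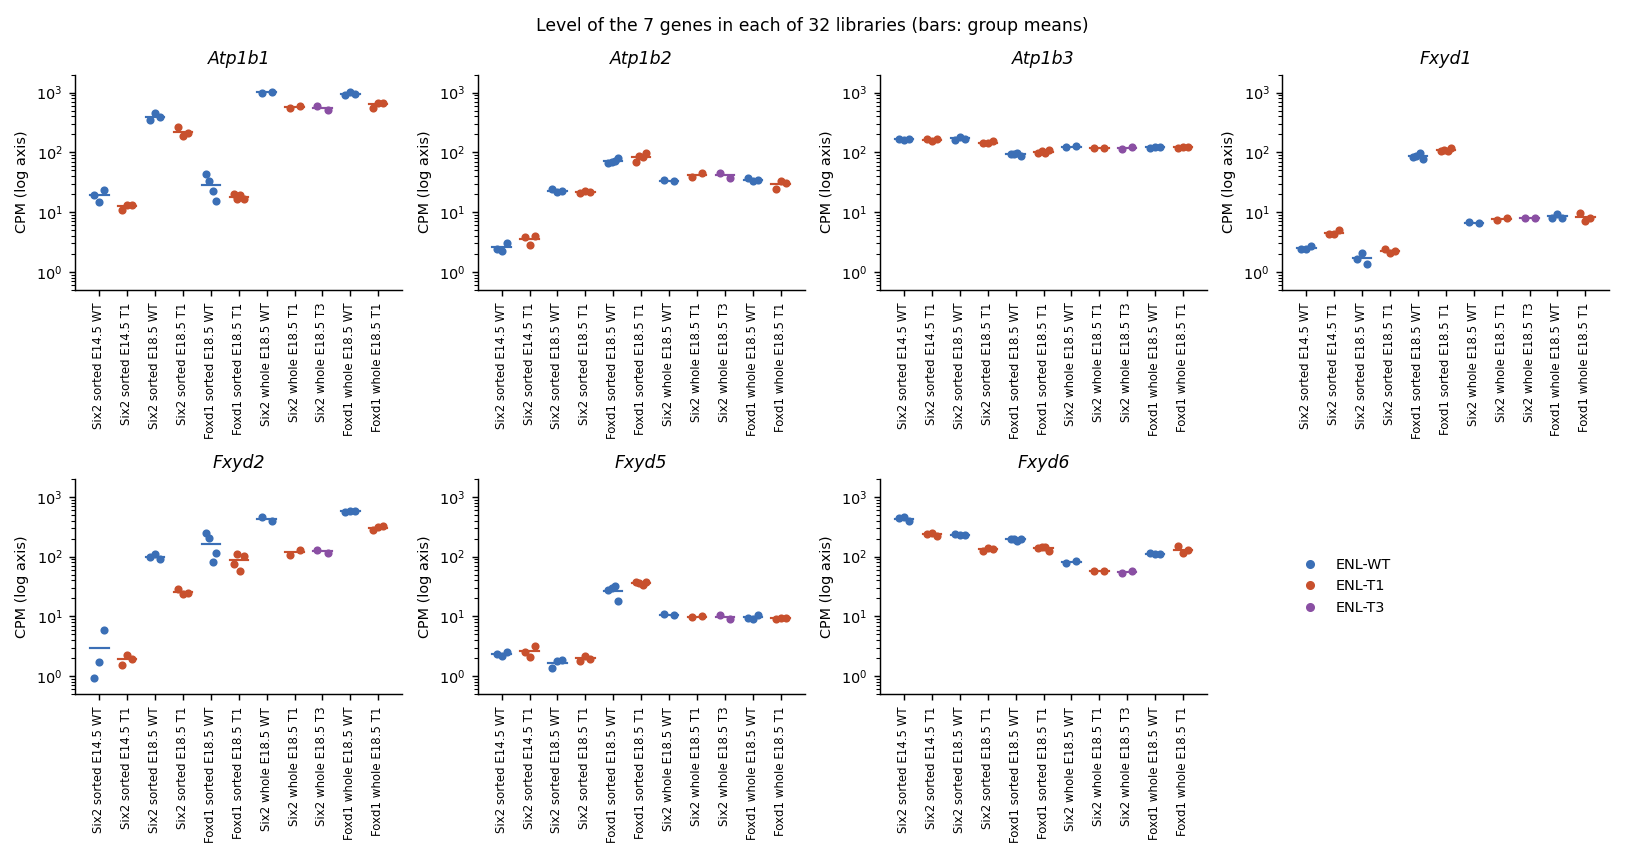
Level of each of the 7 genes in CPM (log axis) in the 32 libraries, by group; points are libraries, bars are group means and colors are genotypes. Atp1b3 stays between 87.9 and 183 CPM, Fxyd2 is lowest in sorted Six2 cells at E14.5, Atp1b1 is low there and in sorted Foxd1 cells, and Fxyd1 and Fxyd5 are highest in sorted Foxd1 cells.

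Divided by the length of the principal transcript, the beta transcripts changed rank between groups. Of the summed CPM per kilobase of the 3 beta genes, Atp1b3 made up 91.0% ± 1.7 (SD, n = 3) in sorted Six2 ENL-WT cells at E14.5 and Atp1b1 8.07% ± 1.5. At E18.5 Atp1b1 made up 61.9% ± 1.9 and Atp1b3 34.8% ± 1.4 in the same lineage. In whole kidneys of ENL-WT, Atp1b1 made up 83.9% ± 0.62 (SD, n = 2) in the Six2 and 83.4% ± 0.81 (SD, n = 3) in the Foxd1 experiment. Sorted Foxd1 ENL-WT cells had 56.1% ± 2.0 Atp1b3, 30.8% ± 4.1 Atp1b2 and 13.1% ± 5.1 Atp1b1 (SD, n = 4).

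In the mutants the share of Atp1b1 was 51.1% ± 5.1 in sorted Six2 cells at E18.5 (SD, n = 3) and 74.9% ± 0.46 in whole Six2 ENL-T1 kidneys (SD, n = 2), each library below every ENL-WT library of its experiment. Among the 4 FXYD genes, Fxyd6 made up 95.7% ± 2.1 of the sum per kilobase in sorted Six2 ENL-WT cells at E14.5. At E18.5 Fxyd2 stood at 54.2% ± 2.1 and Fxyd6 at 44.4% ± 2.2, and in ENL-T1 cells at 34.1% ± 3.0 and 61.5% ± 3.1 (SD, n = 3). This order depends on the length used, since Fxyd2 has a principal transcript of 632 bases within 4005 bases of exons: with the exon union, Fxyd6 leads in ENL-WT cells too, with 68.3%.

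**Figure D2:**
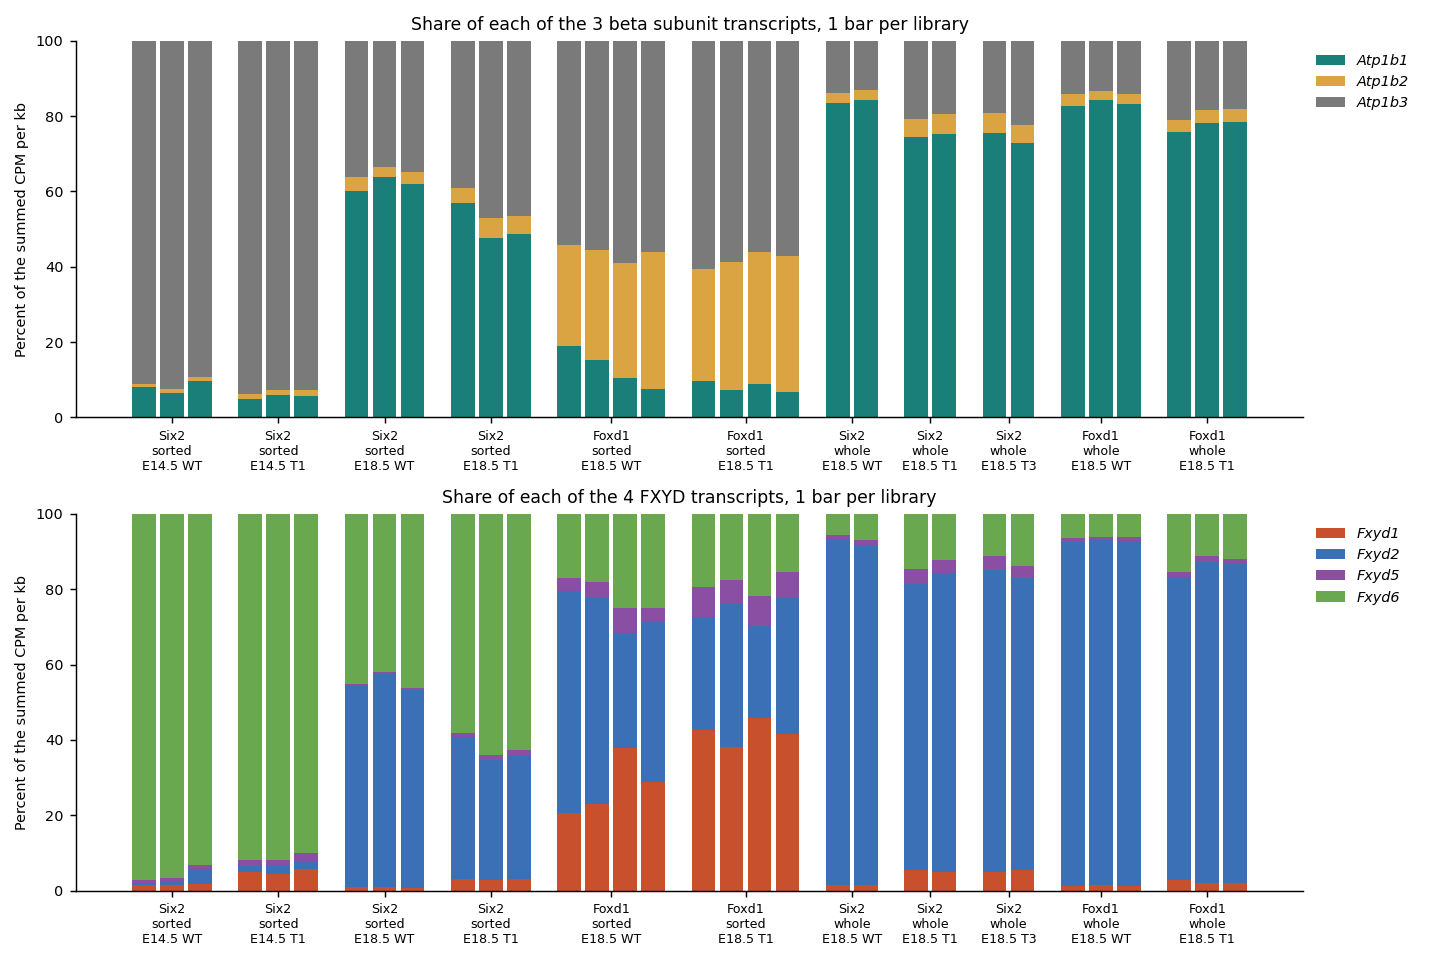
Share of each beta transcript (top) and each FXYD transcript (bottom) in the summed CPM per kilobase of its family, in percent, with 1 stacked bar per library, ordered by group. Atp1b3 fills about the whole beta bar in sorted Six2 cells at E14.5 (91.0% in ENL-WT), and Atp1b1 is the largest part in sorted Six2 cells at E18.5 and in whole kidneys, while Atp1b3 is the largest in sorted Foxd1 cells.

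The sorted Six2 cells were compared between E14.5 and E18.5. In ENL-WT cells Atp1b1, Atp1b2 and Fxyd2 rose from E14.5 to E18.5. The 3 called genes among 7 stand against 24.8% of 25222 tested genes called higher, and none was called lower, against 20.6%, where a call needs an adjusted p below 0.01 and more than a 2-fold change. Fxyd2 was at 0.943, 1.75 and 6.00 CPM in the 3 ENL-WT libraries at E14.5 and at 98.4, 110 and 91.7 CPM at E18.5. All E18.5 libraries lie far above all E14.5 libraries, and the third E14.5 library, the one with the most proximal tubule markers, is the highest of its group. The difference was 34.6-fold (log2 5.11, SE 0.48, adjusted p = 1.9e-07 by edgeR's quasi-likelihood test).

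Atp1b1 was at 19.2, 14.997 and 23.7 CPM at E14.5 and at 348, 451 and 384 CPM at E18.5, a 20.4-fold rise without overlap (log2 4.35, SE 0.18). Atp1b2 rose 8.90-fold, from a mean of 2.56 ± 0.45 to 22.8 ± 1.3 CPM (SD, n = 3). Atp1b3 differed by a log2 of 0.03 with a 95% interval from -0.09 to 0.15. Fxyd6 was 1.85-fold lower at E18.5, with 435, 453 and 396 CPM before and 236, 231 and 228 after, an adjusted p of 6.8e-09 but short of the fold change required. Fxyd1 was 1.47-fold lower at E18.5 (log2 -0.56, SE 0.18), with an adjusted p of 0.011 just over the threshold. Fxyd5 had a log2 difference of -0.47 (SE 0.20, adjusted p = 0.048) and was not called. E14.5 cells were released with trypsin and E18.5 cells with collagenase, so stage and dissociation cannot be told apart. In ENL-WT cells podocyte markers summed to 92.5 to 117 CPM at E14.5 and 2761 to 3233 at E18.5. Progenitor markers summed to 1761 to 2049 and 1073 to 1380.5 CPM. The part of the cell mix in the stage differences was not tested.

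In ENL-T1 cells the same 3 genes rose (against 24.4% of genes called higher) and Fxyd1 fell (against 19.8% called lower). Fxyd2 rose 13.6-fold, Atp1b1 17.7-fold and Atp1b2 6.15-fold, while Fxyd1 was 2.03-fold lower, and its stage by genotype interaction was -0.47 (SE 0.25, adjusted p = 0.30). That call of Fxyd1 was lost under DESeq2 (log2 fold change -0.93) and without replicate 3 of E14.5 or replicate 2 of E18.5. The stage by genotype interaction (adjusted p below 0.05) was called for none of the 7 genes (8.16% of 25222 tested genes were called), with 3 of the 7 at an unadjusted p under 0.05 (Atp1b2, Atp1b3 and Fxyd2). DESeq2 called Atp1b2 (-0.57, adjusted p = 0.027). For Fxyd2 the interaction was -1.34 on the log2 scale (95% interval -2.63 to -0.06, adjusted p = 0.21 by edgeR's quasi-likelihood test). Without ENL-WT replicate 3 of E14.5 it was -2.44, with an adjusted p of 7.9e-05.

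In whole Six2 kidneys at E18.5 the mutants had less Fxyd2 and less Atp1b1 than ENL-WT, with both alleles. In ENL-T1 these were 2 of 7 genes called lower, against 4.88% of 23931 tested genes, and in ENL-T3 the same 2, against 5.28%, where a call needs an adjusted p below 0.05 and more than a 1.5-fold change. None of the 7 was called higher (2.88% and 4.34% of genes). Both alleles were set against the same 2 ENL-WT libraries. Fewer cells of a type and less RNA per cell cannot be told apart in such bulk samples.

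Fxyd2 stood at 460 and 392 CPM in ENL-WT, at 104 and 131 in ENL-T1 and at 131 and 113 in ENL-T3. Every mutant library lies below both ENL-WT libraries, and the alleles overlap. Fxyd2 fell 3.62-fold in ENL-T1 (log2 -1.86, SE 0.13, adjusted p = 0.00016) and 3.49-fold in ENL-T3 (log2 -1.80, SE 0.13, adjusted p = 0.00015).

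Atp1b1 stood at 967 and 1037 CPM in ENL-WT, at 548 and 585 in ENL-T1 and at 586 and 513 in ENL-T3, again without overlap with ENL-WT. It fell 1.77-fold in ENL-T1 (log2 -0.82, SE 0.09, adjusted p = 0.0011) and 1.82-fold in ENL-T3 (log2 -0.87, SE 0.09, adjusted p = 0.00072). Fxyd6 was 1.42-fold and 1.49-fold lower, with adjusted p of 0.0020 and 0.00096, just under the fold change required. Atp1b3, Fxyd1, Fxyd5 and Atp1b2 did not pass the test in either allele.

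Between ENL-T3 and ENL-T1 none of the 7 genes was called (0.00418% of genes were), none had an unadjusted p under 0.05, and DESeq2 and the exact test of edgeR also called none. The 95% interval of the log2 difference was -0.25 to 0.35 for Fxyd2 and -0.26 to 0.17 for Atp1b1. Beside these genes, all 5 proximal tubule markers and all 5 loop and distal tubule markers were called lower in both alleles. The proximal tubule markers summed to 1201 to 1628 CPM in ENL-WT, 243 to 299 in ENL-T1 and 222 to 227 in ENL-T3. All 6 progenitor and all 5 podocyte markers were called lower and 10 of 12 macrophage markers higher, also in both alleles. Progenitor markers summed to 310.1 to 367 CPM in ENL-WT, 176 to 178 in ENL-T1 and 145.2 to 166 in ENL-T3, podocyte markers to 796 to 919, 228 to 243 and 229.7 to 243 CPM, and macrophage markers to 169.6 to 169.9, 235 to 260.3 and 250.1 to 275 CPM. Ureteric and collecting duct markers summed to 756 to 895 CPM in ENL-WT, 607 to 628 in ENL-T1 and 545 to 606 in ENL-T3. Of these 8 markers, 1 was called lower in ENL-T1 and 3 in ENL-T3. The part of these cell types in the lower Fxyd2 and Atp1b1 was not tested.

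In sorted Six2 cells at E14.5 Fxyd6 and Atp1b1 fell and Fxyd1 rose in ENL-T1. The 2 genes called lower stand against 2.28% of 22387 tested genes, and the 1 called higher against 4.11%. Fxyd6, the most abundant FXYD transcript of these cells, was at 435, 453 and 396 CPM in ENL-WT and at 236, 251 and 224 in ENL-T1. No libraries overlap. The fall was 1.79-fold (log2 -0.84, SE 0.06, adjusted p = 0.00012).

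Fxyd1 was at 2.40, 2.38 and 2.69 CPM in ENL-WT and at 4.34, 4.25 and 4.96 in ENL-T1, a 1.83-fold rise without overlap (log2 0.88, SE 0.13, adjusted p = 0.0038). In the same libraries 7 of 8 stroma markers were called higher and 1 lower (Foxd1), and their sum ran from 426 to 564 CPM in ENL-WT and from 873 to 1772 in ENL-T1. All 6 progenitor markers were called lower, with sums from 1761 to 2049 CPM in ENL-WT and from 883 to 1075 in ENL-T1, and the podocyte markers, 2 of 4 tested called lower and 1 higher, summed to 92.5 to 117 and 46.4 to 53.5 CPM. The part of these markers in the 3 called genes was not tested.

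Atp1b1 was at 19.2, 14.997 and 23.7 CPM in ENL-WT and at 10.9, 13.3 and 13.1 in ENL-T1. The libraries do not overlap, and the gap between the nearest of them is small. The fall of 1.54-fold (log2 -0.62, SE 0.16) had an adjusted p of 0.040, and leaving out any library except ENL-WT replicate 2 ended the call, with adjusted p from 0.078 to 0.13. Fxyd2 had a log2 difference of -0.59 with an interval from -1.90 to 0.72, and of 0.51 without ENL-WT replicate 3. Atp1b2, Atp1b3 and Fxyd5 did not pass the test.

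In sorted Six2 cells at E18.5 Fxyd2, Atp1b1 and Fxyd6 fell, 3 of 7 genes against 5.54% of 22685 tested genes called lower, and none was called higher, against 6.14%. Fxyd2 was at 98.4, 110 and 91.7 CPM in ENL-WT and at 28.6, 24.1 and 24.8 in ENL-T1. All mutant libraries lie far below the lowest control. The fall was 3.86-fold (log2 -1.95, SE 0.09, adjusted p = 6.3e-09).

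Atp1b1 was at 348, 451 and 384 CPM in ENL-WT and at 267, 187 and 207 in ENL-T1, a 1.78-fold fall without overlap (log2 -0.83, SE 0.12, adjusted p = 0.00023). Fxyd6 was at 236, 231 and 228 CPM in ENL-WT and at 125, 137 and 134 in ENL-T1, a 1.75-fold fall without overlap (log2 -0.80, SE 0.06, adjusted p = 7.6e-07). Atp1b3 was lower (log2 -0.22, SE 0.07, adjusted p = 0.030), short of the fold change. Fxyd1, Fxyd5 and Atp1b2 did not pass.

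All 5 proximal tubule and all 5 podocyte markers and 4 of 5 loop and distal tubule markers were called lower in these cells. Podocyte markers summed to 2761 to 3233 CPM in ENL-WT and 192 to 244 in ENL-T1. Proximal tubule markers summed to 305 to 400 CPM in ENL-WT and 62.1 to 81.7 in ENL-T1, and progenitor markers to 1073 to 1380.5 and 392 to 503. Of 8 stroma markers, 6 were called higher and 1 lower (Foxd1). The stroma sum ran from 277.33 to 507.67 CPM in ENL-WT and from 786.41 to 918.52 in ENL-T1. Foxd1 alone was at 32.907 to 39.83 CPM in ENL-WT and at 9.2767 to 10.454 in ENL-T1. Red cell markers summed to 103 to 202 CPM in ENL-WT and 1477 to 2176 in ENL-T1, and macrophage markers, 10 of 12 called higher, to 38.6 to 41.7 and 110.2 to 125 CPM. The part of these cell types in the lower members was not tested.

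**Figure D3:**
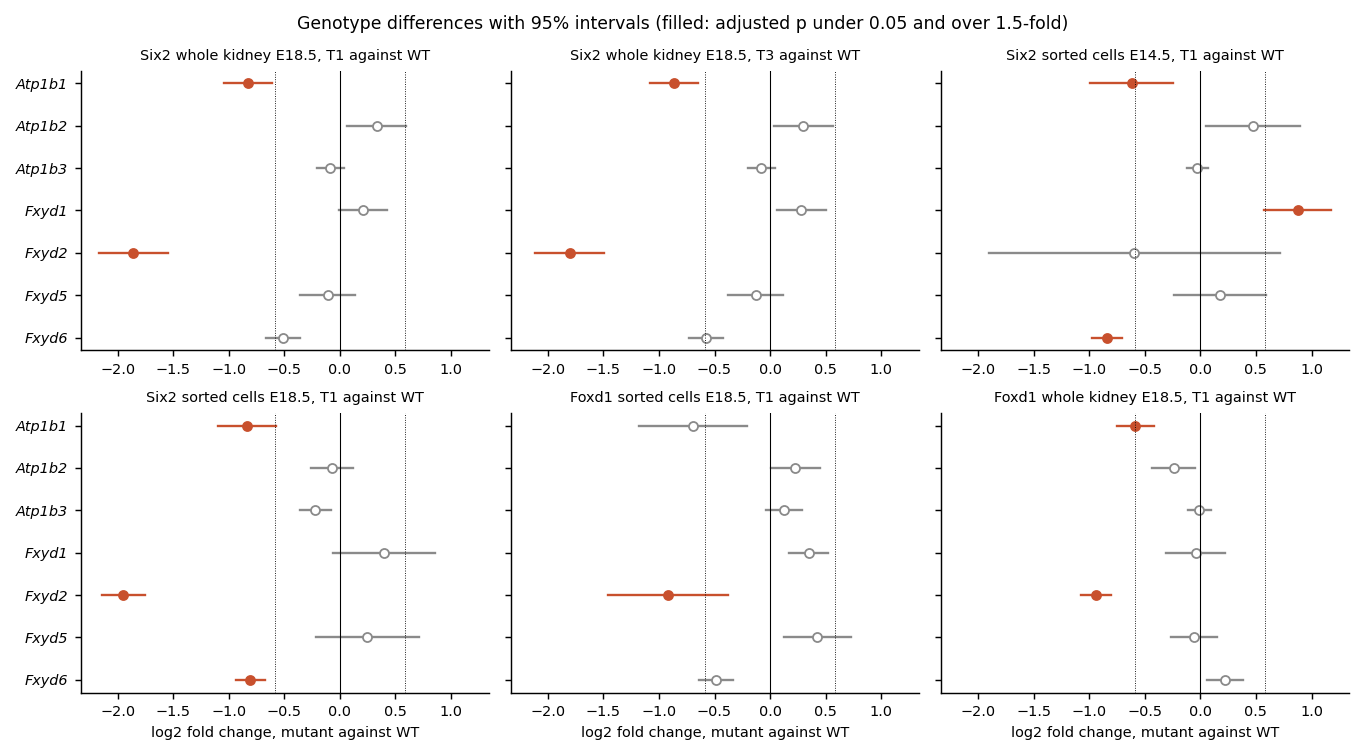
Log2 fold change of each of the 7 genes in the 6 comparisons of mutant with ENL-WT; points are estimates, lines are 95% intervals, filled red points passed the adjusted p and the 1.5-fold rule (dotted lines). Fxyd2 is at -1.86, -1.80 and -1.95 in the E18.5 Six2 comparisons. Atp1b3 runs from -0.22 in sorted Six2 cells at E18.5 (95% interval -0.36 to -0.08) to 0.13 in sorted Foxd1 cells.

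In sorted Foxd1 cells at E18.5 Fxyd2 was the 1 gene of 7 called lower, against 2.18% of 12717 tested genes, and none was called higher, against 3.63%. Fxyd2 was at 248, 207, 79.8 and 116 CPM in ENL-WT and at 74.5, 112, 57.2 and 103 in ENL-T1. The groups overlap, and the top 2 values belong to the ENL-WT replicates with the most tubule markers. The difference was 1.89-fold (log2 -0.92, SE 0.26, adjusted p = 0.026). Without those 2 libraries, an alternative chosen after the data had been seen, it was -0.18 with an adjusted p of 0.67, and DESeq2 gave -0.91 with an adjusted p of 0.22.

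The call was also lost without ENL-WT replicate 1 or 2 or ENL-T1 replicate 1 or 3 alone, with adjusted p from 0.069 to 0.10. Atp1b1, at 43.1, 33.0, 22.6 and 15.2 CPM in ENL-WT and 20.3, 16.3, 19.4 and 16.5 in ENL-T1, had its 2 highest values in the same ENL-WT replicates. Its log2 difference was -0.69 (adjusted p = 0.066). The proximal tubule markers summed to 65.7 to 190.0 CPM in ENL-WT and 34.9 to 66.8 in ENL-T1, with 2 of 4 tested called lower and Kap at 0 in ENL-T1, while the stroma markers summed to 6059 to 8688 and 6756 to 7729.6 CPM. Macrophage markers, 8 of 12 called higher, summed to 163 to 419 CPM in ENL-WT and 366 to 502 in ENL-T1. ENL-WT replicates 1 and 2 also held the most podocyte markers of the ENL-WT libraries (744 and 507 CPM). The same held for ureteric and collecting duct markers (217 and 177 CPM). Replicate 1 was also highest of the ENL-WT libraries in endothelium (482 CPM), macrophage (419 CPM) and red cell (247 CPM) markers. The part of these markers in the results for these cells was not tested.

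**Figure D4:**
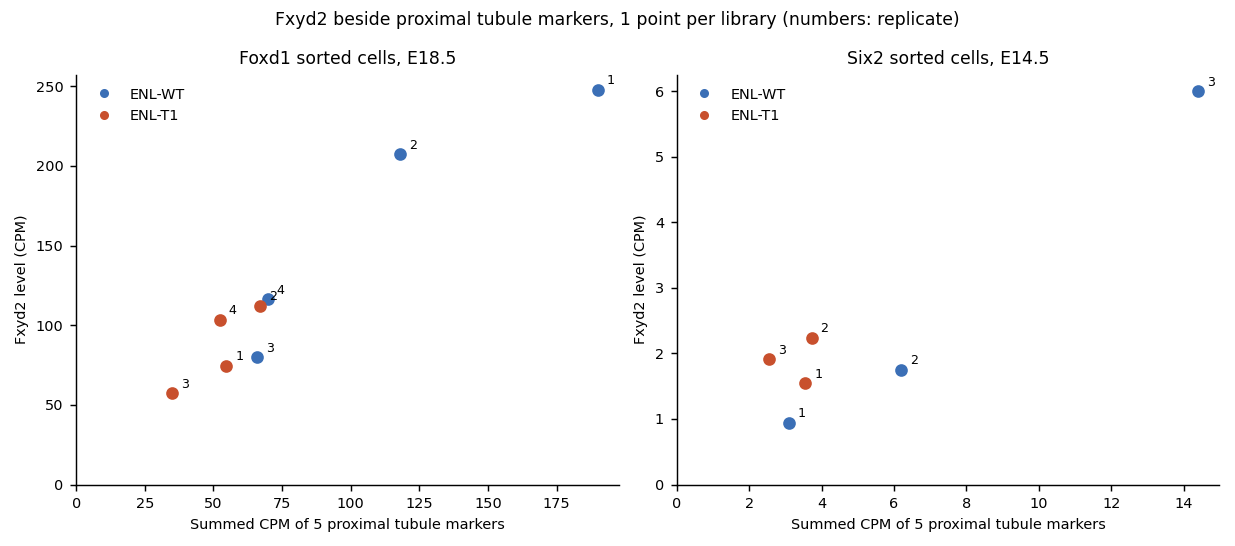
Fxyd2 (CPM) against the summed CPM of 5 proximal tubule markers, 1 point per library labelled by replicate, in sorted Foxd1 cells at E18.5 (left) and sorted Six2 cells at E14.5 (right). The libraries with the most marker RNA (ENL-WT 1 and 2 on the left with 190.0 and 118 CPM, ENL-WT 3 on the right with 14.4) also have the most Fxyd2; as these are points of few libraries, no test was made.

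Fxyd6 separated the genotypes in sorted Foxd1 cells without overlap, with 201, 194, 185.4 and 193 CPM in ENL-WT and 137, 146, 144 and 126 in ENL-T1. Its adjusted p was 0.00013 and its 1.40-fold difference (log2 -0.49, SE 0.07) was under the fold change required. Fxyd1, with 84.4, 85.9, 96.8 and 77.8 CPM in ENL-WT and 104, 111, 104 and 118 in ENL-T1, was 1.27-fold higher without overlap (log2 0.35, SE 0.08, adjusted p = 0.0098), also under it. Fxyd5 was at 17.7 to 32.3 CPM in ENL-WT and 33.8 to 37.5 in ENL-T1 (log2 0.42, adjusted p = 0.067). Atp1b2 (log2 0.23, adjusted p = 0.19) and Atp1b3 (log2 0.13, adjusted p = 0.35) did not pass. Fxyd7, the gene between Fxyd5 and Fxyd1, was called higher with 17.2, 19.3, 18.1 and 15.6 CPM against 41.0, 39.6, 37.4 and 40.4 (log2 1.17, SE 0.12, adjusted p = 1.5e-06).

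Set against sorted Six2 cells of ENL-WT at E18.5, sorted Foxd1 cells had more Fxyd1, Fxyd5 and Atp1b2 and less Atp1b1. These were 3 of 7 genes called higher, against 27.2% of 14869 tested genes, and 1 called lower, against 28.2%, by the rule used for the stages. Fxyd1 was 58.7-fold higher (log2 5.88, SE 0.12), Fxyd5 18.6-fold (log2 4.22, SE 0.18) and Atp1b2 3.68-fold (log2 1.88, SE 0.10), while Atp1b1 was 11.6-fold lower (log2 -3.54, SE 0.19). Atp1b3 was 1.58-fold lower (log2 -0.66, SE 0.07, adjusted p = 2.4e-08), short of the fold change. Fxyd6 did not differ beyond its error (log2 -0.05, 95% interval -0.18 to 0.09). Fxyd2 was 1.91-fold higher in Foxd1 cells and -0.05 on the log2 scale without the 2 ENL-WT libraries richest in tubule markers. Per the study's methods, reads were shorter for Six2 than for Foxd1 samples. Lineage, read length and depth cannot be told apart in this comparison.

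The ENL-T1 effect differed between the lineages for Fxyd6 and Atp1b3 by the interaction test (2 of 7 called higher, against 8.25% of 14869 genes, and none lower, against 7.63%). The effect on Fxyd6 was smaller in Foxd1 cells by 0.30 on the log2 scale (SE 0.09, adjusted p = 0.034), and that on Atp1b3 moved by 0.33 (SE 0.10, adjusted p = 0.032). Both calls were lost when libraries were scaled by library size only, without the low-count filter, without the 2 libraries richest in tubule markers (adjusted p = 0.11 and 0.14) and on leaving out single libraries, 10 of 14 for Fxyd6 and 7 of 14 for Atp1b3. For Fxyd2 the interaction was 1.01 (SE 0.34, adjusted p = 0.050 and not called), and 1.73 without those 2 libraries (adjusted p = 4.3e-06).

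In whole Foxd1 kidneys, where Cre acts in the stroma, Fxyd2 and Atp1b1 were lower in ENL-T1. They were 2 of 7 genes called lower, against 7.53% of 20145 tested genes, with none called higher, against 2.65%. Fxyd2 was at 567, 589 and 581 CPM in ENL-WT and at 275, 309 and 322 in ENL-T1, a 1.92-fold fall without overlap (log2 -0.94, SE 0.06, adjusted p = 2.1e-07). Atp1b1 was at 898, 1015 and 936 CPM and at 550, 678 and 673, without overlap.

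The log2 difference of Atp1b1 was -0.58 (SE 0.08, adjusted p = 8.8e-05), at the 1.5-fold limit. The call was lost with -0.58 under DESeq2 and RLE scaling and with -0.49 without ENL-T1 replicate 1, the library with muscle markers, and with -0.53 without ENL-WT replicate 2, while the adjusted p stayed under 0.001. Fxyd6 was higher here by 0.22 (SE 0.07, adjusted p = 0.036), with 114, 111 and 112 CPM against 149, 116 and 129, and so was short of the fold change. Atp1b2 (log2 -0.24), Atp1b3 (-0.01), Fxyd1 (-0.04) and Fxyd5 (-0.06) did not pass the test. In the same kidneys 4 of 5 proximal tubule markers were called lower (1708.5 to 1906 CPM in ENL-WT, 772 to 1003 in ENL-T1) and 5 of 6 progenitor markers higher. Loop and distal tubule markers summed to 957 to 1048 CPM in ENL-WT and 520 to 704 in ENL-T1. Ureteric and collecting duct markers summed to 884 to 1001 and 639 to 688 CPM. The part of these markers in these results was not tested, nor was the difference between the 2 whole-kidney experiments.

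Of 11 other pump and FXYD genes, 9 were tested in whole Six2 kidneys, where Atp12a, the alpha subunit of a proton-potassium pump, fell with log2 -1.51 in ENL-T1 and -1.45 in ENL-T3, while Atp4a and Fxyd3 were called higher (42.5% of the exon length of Fxyd3 is shared with Lgi4). Fxyd7 was called higher in ENL-T1 in whole Foxd1 kidneys too (log2 0.93, adjusted p = 0.00062).

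Of 17 genes of tubule sodium and potassium transport, 13 were called lower in whole Six2 ENL-T1 kidneys, 12 in ENL-T3, 12 in sorted Six2 cells at E18.5 and 12 in whole Foxd1 kidneys, with none called higher in these 4. Over all tested genes 4.88%, 5.28%, 5.54% and 7.53% were called lower there, in this order, and 2.88%, 4.34%, 6.14% and 2.65% higher. The median log2 fold change of the list was -0.87 in whole Six2 ENL-T1 kidneys, against -0.01 over all tested genes. In sorted Foxd1 cells 3 of the 7 tested were called lower, against 2.18% of all tested genes. In sorted Six2 cells at E14.5, where 9 were tested, Kcnj16 fell (against 2.28% of genes) and Slc4a4 rose (against 4.11%). In whole Six2 ENL-T1 kidneys the largest falls were in Slc5a2, the proximal sodium-glucose transporter (log2 -3.73), Slc34a1, the proximal sodium-phosphate transporter (-2.68), and the potassium channel gene Kcnj15 (-2.49). All 17 rose from E14.5 to E18.5 in sorted ENL-WT cells, where 24.8% of all tested genes were called higher.

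Among 14 regulators of the pump and of tubule transport, 3 were called lower in whole Six2 ENL-T1 kidneys and 4 in ENL-T3, 2 in sorted Six2 cells at E18.5, 3 in whole Foxd1 kidneys and 0 of the 11 tested in sorted Foxd1 cells by edgeR's quasi-likelihood test, where 5 had an unadjusted p under 0.05. Over all tested genes 4.88%, 5.28%, 5.54%, 7.53% and 2.18% were called lower in these comparisons, in this order. Esrrb, a nuclear receptor of the distal tubule, had the largest fall in each of the first 4 (log2 -2.56, -2.71, -2.01 and -3.17). At E14.5 Hsd11b2 was among those that fell (against 2.28% of genes), and Nr3c1 and Klhl3 rose (against 4.11%).

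Over the 12 sorted Six2 libraries the genes whose centred log2 profile was nearest to that of each member were found by the root mean square difference among 25222 genes. Nearest to Fxyd2 were Pdzk1, a scaffold of proximal brush border transporters (0.32 log2 units), Hsd3b5 (0.37) and Pipox (0.47). Nearest to Atp1b1 were Itgb8 (0.16), Lama5 (0.22) and Vat1 (0.25), and nearest to Fxyd6 were the imprinted genes Mest (0.12) and Grb10 (0.13) and Cped1 (0.14). Atp1b2 was nearest to Vim (0.16), Tab2 (0.17) and Kctd12 (0.18), and Fxyd1 to Arap1 (0.17), Nkd1 (0.18) and Epb41l3 (0.19). Atp1b3 and Fxyd5 spanned less than the 2-fold between group means that was required.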

How the data were processed

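Polyadenylated RNA was measured in 32 libraries. Per the labels and the study's methods, the authors used a stranded kit for whole kidneys and a low-input kit for sorted cells. HISAT2 alignments to mm10 were summed over genes by HTSeq, ignoring strand. The deposited values are the resulting raw counts, without normalization. The annotation release is not given in the sources used here. GENCODE vM21 gave symbols for 55450 of 55806 identifiers.

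The work was done in R 4.3.3, with edgeR 4.0.16 for the tests. The filter was filterByExpr (at least 10 counts, at least 15 in total), scaling was by TMM in each table, and edgeR's quasi-likelihood test gave p values, adjusted by Benjamini-Hochberg over all tested genes. Genotype differences were called at an adjusted p under 0.05 and over 1.5-fold, stage and lineage differences under 0.01 and over 2-fold, and interactions under 0.05. The 3 genotypes of whole Six2 kidneys shared a fit, other genotype comparisons used their own libraries, stage used 12 and lineage 14 sorted libraries. Levels are edgeR's CPM over TMM-scaled library totals, and CPM per kilobase used the principal transcript, a choice made after the gene models had been seen. The tests were also run on simulated counts drawn with the same spread for every gene. That run does not show how they perform on these libraries.

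Alternatives were edgeR's exact test, DESeq2 1.42.0, RLE and library-size scaling, TMM over all 32 libraries for levels, no low-count filter, a replicate block, other fold thresholds, fits of other library sets, and each library left out. Omitting the ENL-WT Foxd1 libraries highest in tubule markers, and other lengths for shares, were chosen after seeing the data. The genes and lists were chosen with earlier results of these data known. The 7 genes are named by membership, and from other lists at most the 3 largest called changes in each direction, and results of some list genes are not reported here. Labels do not say that libraries of a group came from separate animals, so p values measure the spread between these libraries, which may be technical. Promoters are from RefSeq (GRCm38.p6). Same-numbered libraries were not from a stated common source, and their deviations from the group means correlated with r from -0.18 to 0.22, so they were not treated as pairs.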

Additional observations from a re-analysis of the deposited data

Results flagged for a closer look

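The ENL-T1 effect in sorted cells at E18.5 differed between the Foxd1 and the Six2 lineage by the interaction test for Fxyd6 (0.30 on the log2 scale, from -0.80 in Six2 to -0.49 in Foxd1 cells) and for Atp1b3 (0.33, from -0.22 to 0.13). Lineage, read length and depth cannot be told apart. No library of the 4-library groups lay outside the range set by Dixon's test for any of the 7 genes. The test weighs a single extreme library, so it cannot decide on several high libraries of a group. Fxyd2 in sorted Foxd1 ENL-WT cells, where the libraries with the most tubule markers were highest, is such a case.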

How the results depend on the processing

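The counts of called genes among the 7 moved as follows. With a fold change over 2 they were 1 in whole Six2 ENL-T1 and 1 in ENL-T3 kidneys, 1 in sorted Six2 cells of E18.5 against 0 in those of E14.5, and 0 in sorted and 0 in whole Foxd1 samples. In sorted Foxd1 cells the count of 1 became 3 with no fold threshold, 2 with the exact test, 2 with no low-count filter, 2 with the replicate block, 0 with DESeq2 and 0 without the 2 ENL-WT libraries highest in tubule markers (chosen after seeing the data). In whole Foxd1 kidneys it was 1 with DESeq2, RLE, library size only or no filter. The stage interaction had 1 call with DESeq2 and 1 with no filter, and the lineage interaction 0 with library size only, 1 with no filter and 1 without those 2 libraries. With each library left out in turn, counts were 0 to 2 in sorted Foxd1 cells, 1 to 2 in whole Foxd1 kidneys, 0 to 2 for the stage and 0 to 3 for the lineage interaction.

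Signs turned, on the log2 scale, for Atp1b3 in ENL-T3 against ENL-T1 (-0.00073 with DESeq2, -0.00076 with RLE, -0.0013 with no filter), and with library size only for Atp1b3 at E14.5 (0.014), in whole Foxd1 kidneys (0.0019) and between stages in ENL-WT (-0.11) and for Atp1b2 at E18.5 (0.026). They also turned for Fxyd6 in the stage interaction with no filter (-0.0074) and for Fxyd2 in ENL-WT Foxd1 against Six2 cells without the 2 libraries (-0.051). With single libraries left out, ENL-T3 against ENL-T1 ran from -0.14 to 0.046 for Atp1b1, -0.19 to 0.11 for Atp1b2, -0.033 to 0.042 for Atp1b3, -0.12 to 0.22 for Fxyd2 and -0.16 to 0.097 for Fxyd5. Fxyd2 at E14.5 ran from -1.01 to 0.51. In whole Foxd1 kidneys Atp1b3 ran from -0.028 to 0.0063, Fxyd1 from -0.17 to 0.059 and Fxyd5 from -0.11 to 0.016. The stage interaction ran from -0.092 to 0.24 for Fxyd5 and -0.029 to 0.097 for Fxyd6, and the lineage interaction from -0.0997 to 0.38 for Atp1b1, -0.22 to 0.060 for Fxyd1 and -0.0035 to 0.29 for Fxyd5. The cause was not tested.

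With the replicate block, Atp1b1 in sorted Six2 cells at E14.5 had an adjusted p of 0.050 (-0.60) and lost its call, and Atp1b1 in sorted Foxd1 cells gained one (-0.62, adjusted p = 0.028). Whether replicate numbers pair the libraries was not settled. In sorted Foxd1 cells 2 of 4 ENL-WT and 1 of 4 ENL-T1 libraries correlated best with their own number. In sorted Six2 cells at E14.5 these were 3 of 3 and 2 of 3. The block was not run for the lineage comparisons. The low depth of sorted Foxd1 libraries limits what can be seen there.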
